A study of Mus musculus with 36 samples.

Results

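Livers of 4 male mice with the normal liver X receptor alpha (LXRalpha) that ate a diet promoting metabolic dysfunction-associated steatohepatitis (MASH) and received the agonist T0901317 were compared with livers of 4 such mice on chow. These 8 libraries were chosen by genotype, diet and compound, from 36 in the whole series. Genotype is given at tryptophan 441 of LXRalpha: W/W mice were homozygous controls from a line made with CRISPR, W/F mice carried 1 copy with phenylalanine there, and F/F mice carried 2. All mice were 11 to 12 weeks old. The treated mice ate the high fat, high cholesterol diet Teklad TD.96121 for 4 weeks and received T0901317 at 10 mg/kg by oral gavage each day in the last 2 weeks. A further 4 W/W mice ate this diet and received vehicle. Chow mice were an independent cohort, and no gavage is described for them. Diet, compound, gavage and cohort therefore cannot be told apart in the comparison with chow. It can be divided into a step from chow to vehicle on the MASH diet and a step from vehicle to T0901317, whose fitted log2 differences add up to the whole. The 2 steps share the vehicle mice.

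LXRs are nuclear receptors for oxidised forms of cholesterol. Bound to DNA with a retinoid X receptor, they raise transcription of sterol exporters, of the lipogenic factor Srebf1 and of enzymes that make and desaturate fatty acids. Cholesterol synthesis is governed separately: the factor Srebf2, held back in the endoplasmic reticulum when sterol is plentiful, drives the genes of the mevalonate and sterol steps. T0901317 is a synthetic LXR agonist that is also known to activate the pregnane X receptor, a regulator of drug-metabolising enzymes.

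Promoters of lipid genes are shown first because sterol and fatty acid genes moved in opposite directions in this comparison. Each sequence is the 250 bases before a RefSeq gene start (GRCm38.p6), 5′ to 3′ on the gene's strand. Capitals mark TCACCCCAC, a form of the sterol regulatory element, and CCAAT, the letters bound by NF-Y, on either strand (ATTGG is CCAAT on the other strand, and the 2 forms overlap once in Fasn). Hmgcs1, Sc5d and Ebp make sterols and were lower than on chow, and Fasn and Pnpla3 act on fatty acids and triglyceride and were higher. These 5 windows overlap no exon of the GENCODE M21 annotation.
Hmgcs1, chr13:119690101-119690350, plus strand: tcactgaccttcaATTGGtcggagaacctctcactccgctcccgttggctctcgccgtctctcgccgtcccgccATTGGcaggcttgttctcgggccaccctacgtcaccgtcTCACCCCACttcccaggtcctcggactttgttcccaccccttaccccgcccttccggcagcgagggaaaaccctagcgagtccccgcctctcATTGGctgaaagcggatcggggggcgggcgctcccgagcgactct
Sc5d, chr9:42264301-42264550, minus strand: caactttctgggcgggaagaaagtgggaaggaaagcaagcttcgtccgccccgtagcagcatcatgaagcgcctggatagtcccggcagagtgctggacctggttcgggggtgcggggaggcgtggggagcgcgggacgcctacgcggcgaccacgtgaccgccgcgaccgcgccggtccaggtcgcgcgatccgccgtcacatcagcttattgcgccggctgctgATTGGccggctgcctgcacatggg
Ebp, chrX:8193513-8193762, minus strand: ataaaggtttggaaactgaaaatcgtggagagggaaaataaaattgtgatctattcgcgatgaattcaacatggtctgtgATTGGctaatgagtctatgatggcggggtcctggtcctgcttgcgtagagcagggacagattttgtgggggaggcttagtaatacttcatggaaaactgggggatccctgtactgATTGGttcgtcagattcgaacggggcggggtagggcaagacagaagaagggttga
Fasn, chr11:120824548-120824797, minus strand: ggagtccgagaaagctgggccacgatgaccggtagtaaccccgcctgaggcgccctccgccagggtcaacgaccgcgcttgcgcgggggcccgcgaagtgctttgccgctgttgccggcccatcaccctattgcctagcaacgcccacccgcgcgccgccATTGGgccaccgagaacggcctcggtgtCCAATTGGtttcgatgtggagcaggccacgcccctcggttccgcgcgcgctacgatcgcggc
Pnpla3, chr15:84167566-84167815, plus strand: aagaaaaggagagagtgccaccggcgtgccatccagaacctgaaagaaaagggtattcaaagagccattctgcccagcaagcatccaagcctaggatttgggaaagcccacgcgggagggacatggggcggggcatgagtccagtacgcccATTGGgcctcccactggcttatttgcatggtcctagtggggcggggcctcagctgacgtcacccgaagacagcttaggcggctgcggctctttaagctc
CCAAT was present on either strand in 18 of the 20 cholesterol synthesis and uptake genes that have a RefSeq promoter, in 13 of 23 fatty acid synthesis genes (56.5%), and in 37.5% of all 27025 genes. Hmgcs1 and Fasn each held CCAAT 3 times. TCACCCCAC was found in 1 of the 20 cholesterol genes, Hmgcs1, and in 0.555% of all genes. These matches describe letters in a window and not bound sites.

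Gene levels are given as TPM, transcript abundances scaled for length to the same total in every library. Read depth, estimated from the smallest steps between TPM values, was 18.1 to 29.1 M reads for the chow mice and 22.8 to 34.3 M for the treated mice. Hepatocyte transcripts were present in every mouse: Alb was 40011 to 69068 TPM on chow and 46204 to 57843 TPM with T0901317. The correlation of log2 values within a W/W group was 0.974 to 0.987. In a principal component analysis of the 12 W/W mice the first component, 32.1% of the variance, ran from chow (-38.5 to -23.7) through vehicle (-5.67 to 2.37) to T0901317 (27.8 to 47.3). Among the chow and T0901317 mice, chow mouse 2 and T0901317 mouse 2 lay farthest from their groups. Vehicle mouse 1, not in that ranking, was at -40.3 on the second component, against -29.2 to -16.3 for the other vehicle mice. The labels name separate mice but no litter or cage. The p-values rest on a spread between mice that was estimated within all 9 groups of 36 libraries, W/F and F/F included. In whole liver, fewer cells of a type and less RNA per cell cannot be told apart.

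Of 16638 genes tested with limma, 3837 differed between T0901317 on the MASH diet and chow at an adjusted p under 0.05 (23.1%). Of these, 1714 were higher (10.3% of genes tested) and 2123 were lower (12.8%). After rescaling each library by its median ratio to a common reference, 4783 passed and the balance turned, with 2582 higher and 2201 lower. Of the 3837 genes, 674 differed by 2-fold or more, 374 higher and 300 lower. The median log2 difference over all genes was 0. The groups did not overlap for 4404 genes, of which 3277 passed the test. Without both farthest mice, 2193 genes passed, of which 2132 were among the 3837.

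**Figure D1:**
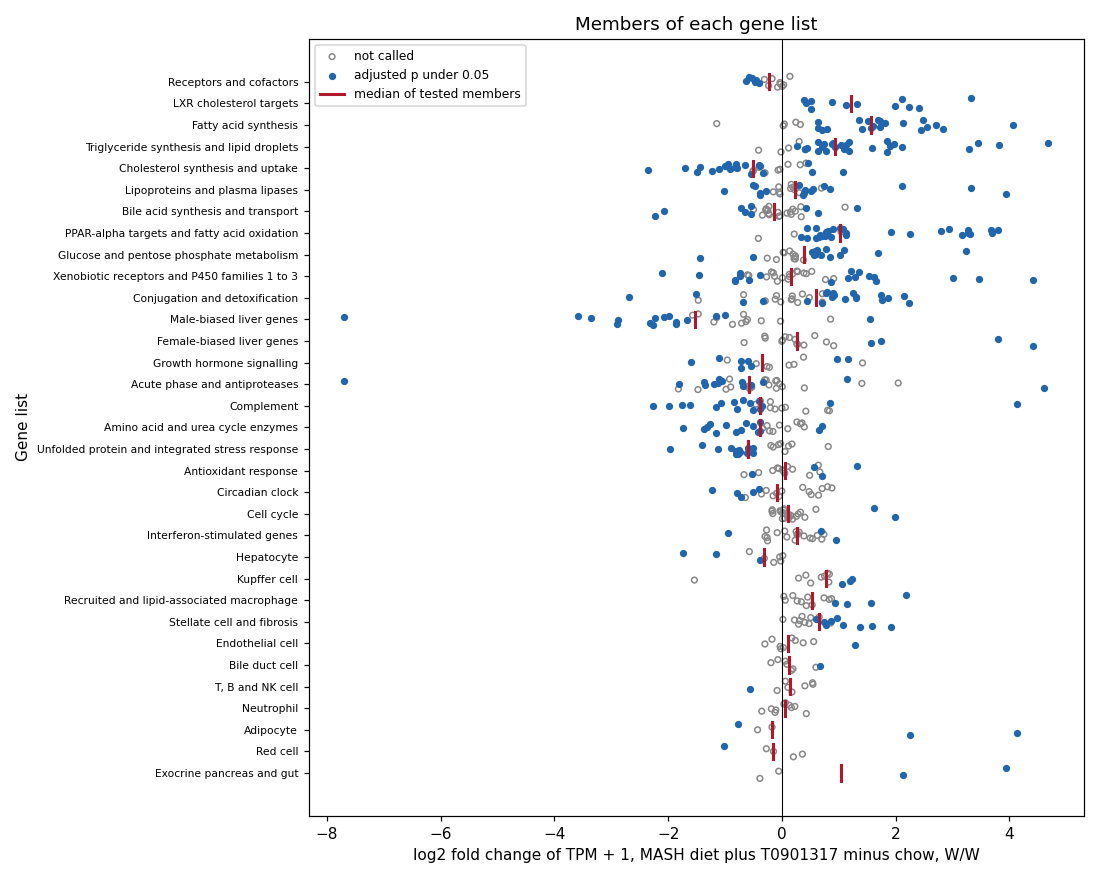
Log2 differences of TPM + 1 (T0901317 on the MASH diet minus chow, W/W, 4 against 4 mice) for the tested members of each gene list, 1 point a gene. Filled points passed an adjusted p of 0.05, open points did not, and the red bar is the list's median, which was 1.57 for fatty acid synthesis and -0.51 for cholesterol synthesis and uptake.

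Transcripts of the receptors did not pass the test. Nr1h3 was 79.1, 91.1, 107 and 90.9 TPM in the 4 chow mice, 83.1, 105, 106 and 101 TPM with vehicle and 87.8, 82.9, 90.7 and 85.9 TPM with T0901317. Nr1h3 is the usual symbol of LXRalpha, its groups overlapped, and its log2 difference was -0.08 ± 0.10 (adjusted p = 0.662, 95% interval -0.29 to 0.13). Here and below, a log2 difference is T0901317 minus chow in W/W mice on the log2(TPM + 1) scale, the value after ± is its standard error, and p is limma's, adjusted over all genes tested. The study's description pairs LXRalpha with the symbol Nr1h2, usually that of LXRbeta, for which the difference was 0.01 ± 0.10 (adjusted p = 0.988). A changed residue need not alter the level of a transcript, so these values do not check the genotype. Of 15 receptors and cofactors, 6 fell and none rose (40% and 0%, against 12.8% and 10.3% of all genes). Without both farthest mice 3 fell. Ppargc1a, among the 6, no longer passed under 7 of 8 omissions of a single mouse (limma, adjusted p up to 0.153). The coactivator Ncoa2 fell from 5.94 to 7.81 TPM to 3.07 to 4.55 TPM, by 0.63 ± 0.12 (adjusted p = 0.000227) on the log2 scale, with no overlap. Med1, a mediator subunit, changed by -0.53 ± 0.12 (adjusted p = 0.00123).

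Known LXR targets of sterol handling rose: all 12 tested genes of the list passed the test, against 10.3% of all genes, with a median log2 difference of 1.22. Without both farthest mice 9 of the 12 passed. Abcg5 was 95.7, 92.1, 54.5 and 83.8 TPM in the 4 chow mice, 292, 302, 233 and 332 TPM with vehicle and 319, 448, 344 and 409 TPM with T0901317. This transporter subunit pairs with Abcg8 to move sterol into bile. All treated mice lay above all chow mice, and the differences were 2.23 ± 0.23 (adjusted p = 3.15e-08) for Abcg5 and 1.99 ± 0.27 (adjusted p = 2.67e-06) for Abcg8. Most of the Abcg5 difference was already present with vehicle (log2 1.84, adjusted p = 3.69e-06 from chow to vehicle, 0.39, adjusted p = 0.347 from vehicle to T0901317). Abcg5 and Abcg8 lie on opposite strands and overlap, and the strand setting of the counting is not given in the sources used here. Abca1, which exports cholesterol to lipid-poor apolipoprotein A-I, was 27.3, 45.1, 38.7 and 36.9 TPM on chow, 27.9, 30.8, 26.3 and 35.3 TPM with vehicle and 51.9, 48.3, 55.8 and 53.4 TPM with T0901317. The groups of chow and T0901317 did not overlap, and the log2 difference was 0.51 ± 0.15 (adjusted p = 0.0133). Abca1 no longer passed without chow mouse 1 (log2 difference 0.37, adjusted p = 0.0781).

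Lpl was 6.79, 16.1, 7.97 and 9.22 TPM in the 4 chow mice, 9.63, 17.6, 23.1 and 12.4 TPM with vehicle and 97.1, 123, 76.3 and 128 TPM with T0901317. Lpl, the lipase that frees fatty acids from circulating lipoproteins, rose by 3.32 ± 0.30 (adjusted p = 1.81e-09), mainly in the step from vehicle (2.72, adjusted p = 1.32e-07). Pltp, a phospholipid transfer protein, was 120.2, 36, 33.9 and 101 TPM on chow, 16.9, 38.7, 39 and 19.1 TPM with vehicle and 259, 363, 258 and 227 TPM with T0901317. Its level with vehicle was below that on chow (-1.20, adjusted p = 0.0286), and the whole difference was 2.12 ± 0.37 (adjusted p = 8.24e-05). Abcg1 rose by 2.42 ± 0.24 (adjusted p = 7.75e-09), Lpcat3, which inserts polyunsaturated chains into phospholipids, by 1.32 ± 0.14 (adjusted p = 3.29e-08), and Mylip, a ubiquitin ligase, by 1.12 ± 0.18 (adjusted p = 2.02e-05).

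Fatty acid synthesis genes rose: 20 of 25 tested passed (80%, against 10.3% of all genes), none fell, and the median was 1.57. Without both farthest mice 17 rose. Scd1 was 3818, 4146, 1423 and 5447 TPM in the 4 chow mice, 5889, 11171, 8114 and 6408 TPM with vehicle and 22177, 22058, 21512 and 21335 TPM with T0901317. Scd1, the main hepatic stearoyl-CoA desaturase, reached nearly the same level in all 4 treated mice. Its log2 difference was 2.71 ± 0.30 (adjusted p = 5.71e-08). The step from chow to vehicle was 1.20 (adjusted p = 0.00681) and that from vehicle to T0901317 was 1.51 (adjusted p = 0.000644). Scd2 was 1.84, 5.56, 1.78 and 3.68 TPM in the 4 chow mice, 2.23, 2.73, 2.27 and 3.37 TPM with vehicle and 68.2, 91.9, 65.1 and 43.3 TPM with T0901317. Scd2, a desaturase that is low in adult liver, differed by 4.06 ± 0.32 (adjusted p = 6.63e-11). Unlike Scd1, its values with vehicle lay in the range of chow. Fasn was 150.3, 166, 82.6 and 185 TPM in the 4 chow mice, 150.4, 193, 31.2 and 302 TPM with vehicle and 944, 1020.5, 775 and 625 TPM with T0901317. For fatty acid synthase the chow and vehicle mice overlapped (-0.12, adjusted p = 0.921), and the treated mice were higher than both, by 2.55 ± 0.41 (adjusted p = 3.2e-05) against chow. Srebf1 was 134, 116, 119 and 125 TPM in the 4 chow mice, 365, 441, 186 and 599 TPM with vehicle and 635, 662, 710.1 and 694 TPM with T0901317. For Srebf1 the steps were 1.56, adjusted p = 1.42e-05 and 0.88, adjusted p = 0.00599, and the whole difference was 2.44 ± 0.22 (adjusted p = 1.01e-09). The carbohydrate-sensing factor Mlxipl rose by 0.70 ± 0.17 (adjusted p = 0.00209), and without both farthest mice it no longer passed (0.52, adjusted p = 0.0595). The elongase Elovl6 rose by 2.12 ± 0.27 (adjusted p = 6.95e-07) and the acetyl-CoA carboxylase Acaca by 1.57 ± 0.18 (adjusted p = 1.21e-07).

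Of 31 triglyceride synthesis and lipid droplet genes, 26 rose (83.9%, against 10.3% of all genes) and none fell, with a median of 0.94. The count that rose was 22 without both farthest mice. Pnpla3 was 2.45, 1.02, 0.472 and 6.35 TPM in the 4 chow mice, 2.16, 3.34, 0.521 and 4.49 TPM with vehicle and 97.7, 66.6, 76.2 and 62.8 TPM with T0901317. Pnpla3, a lipid droplet protein, was at most 6.35 TPM in the chow and vehicle mice and at least 62.8 TPM in the treated mice. The difference was 4.68 ± 0.33 (adjusted p = 1.6e-11), with a step of 4.53, adjusted p = 3.53e-11 from vehicle. Mir6392, listed at 0 in 3 chow mice, was 44.5, 22, 23.9 and 30.8 TPM with T0901317. It is annotated at chr15:84168270-84168377 inside Pnpla3 (chr15:84167837-84187236) on the same strand, so reads of the 2 may not be separable. Cidec was 12.1, 4.76, 8.55 and 5.21 TPM in the 4 chow mice, 24.6, 35.8, 33.5 and 13.2 TPM with vehicle and 129.8, 164, 93.1 and 86.2 TPM with T0901317. Cidec, which enlarges lipid droplets, rose in both steps (1.67, adjusted p = 0.000381, and 2.15, adjusted p = 5.17e-06) and by 3.82 ± 0.30 (adjusted p = 6.63e-11) in all. Mogat1, a monoacylglycerol acyltransferase, rose by 3.30 ± 0.26 (adjusted p = 1.5e-10), and the Pnpla3 relative Pnpla5 by 3.45 ± 0.19 (adjusted p = 9.55e-14). With a pseudocount of 0.1 the Pnpla5 difference was 5.49 and that of Mir6392 6.72. The droplet coat protein Plin2 rose by 1.58 ± 0.18 (adjusted p = 1.51e-07). G0s2, an inhibitor of triglyceride lipase, differed by 2.54, adjusted p = 0.000189 from chow to vehicle and -0.57, adjusted p = 0.473 from vehicle to T0901317 (114, 33.1, 116 and 104 TPM on chow, 673, 714, 278 and 407 TPM with vehicle, 478, 349.5, 356 and 185 TPM with T0901317).

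**Figure D2:**
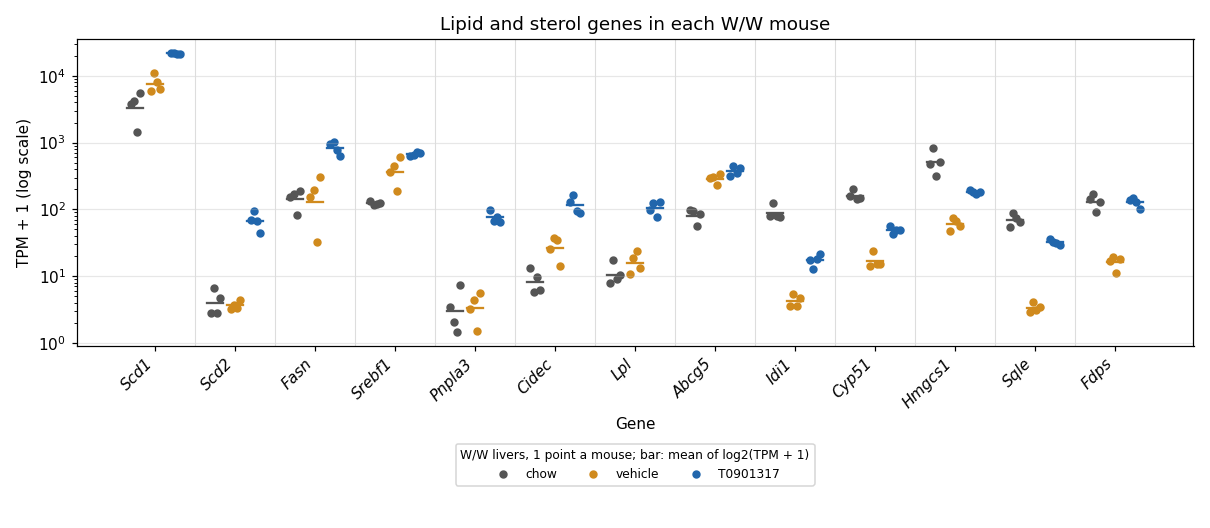
TPM + 1 (log axis) of lipid and sterol genes in each of the 12 W/W mice, 1 point a mouse, with bars at the mean of log2(TPM + 1). Scd1 to Abcg5 were higher with T0901317 than on chow, whereas Idi1, Cyp51, Hmgcs1 and Sqle were lower than on chow but higher than with vehicle, and Fdps overlapped with chow.

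Genes of cholesterol synthesis and uptake went the other way. Of 29 tested, 17 fell (58.6%, against 12.8% of all genes) and 3 rose (10.3%, the same share as of all genes), with a median of -0.51. Without both farthest mice 12 fell and 1 rose. In vehicle mice on the same diet Idi1, Sqle and Hmgcs1 were lower still. Idi1 was 78.6, 124, 78.2 and 75.5 TPM in the 4 chow mice, 2.62, 4.3, 2.5 and 3.73 TPM with vehicle and 16.6, 11.7, 17.3 and 20.3 TPM with T0901317. Idi1, the isomerase of isopentenyl diphosphate, was lowest with vehicle, and treated mice lay between vehicle and chow without overlap. The log2 difference was -2.36 ± 0.23 (adjusted p = 6.91e-09) in all, -4.38, adjusted p = 9.17e-15 from chow to vehicle and 2.03, adjusted p = 1.67e-07 from vehicle to T0901317. Sqle was 53.8, 87.1, 72.5 and 63.5 TPM in the 4 chow mice, 1.9, 3.1, 2.09 and 2.48 TPM with vehicle and 35.4, 30.9, 30.7 and 27.8 TPM with T0901317. For Sqle, the squalene epoxidase, the same steps were -4.36, adjusted p = 4.84e-18 and 3.26, adjusted p = 2.12e-14, and the whole was -1.11 ± 0.17 (adjusted p = 1.27e-05). Hmgcs1 was 483, 830.2, 315 and 517 TPM in the 4 chow mice, 47, 73.1, 65.5 and 55.9 TPM with vehicle and 194, 179.7, 168 and 179 TPM with T0901317. Hmgcs1, the HMG-CoA synthase, changed by -1.49 ± 0.21 (adjusted p = 4.6e-06). Cyp51 changed by -1.71 ± 0.22 (adjusted p = 9.58e-07) and Msmo1 by -1.45 ± 0.18 (adjusted p = 7.16e-07), both enzymes that remove methyl groups from the sterol ring. Sc5d changed by -0.41 ± 0.15 (adjusted p = 0.0415) and Ebp by -0.38 ± 0.08 (adjusted p = 0.000405). Sc5d no longer passed without chow mouse 1, chow mouse 2, chow mouse 4, T0901317 mouse 1, T0901317 mouse 2, T0901317 mouse 3 or T0901317 mouse 4 (log2 difference -0.42 to -0.34, adjusted p up to 0.141). Ebp differed in that its level with vehicle was 149 to 164 TPM and with T0901317 141 to 170.0 TPM, with a step of 0.02, adjusted p = 0.937.

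Not all sterol genes stayed below chow. Fdps was 141, 171, 91.8 and 128 TPM in the 4 chow mice, 15.6, 18.6, 10.2 and 17.2 TPM with vehicle and 138, 146, 127 and 100.2 TPM with T0901317. Fdps, the farnesyl diphosphate synthase, overlapped with chow, with a log2 difference of -0.04 ± 0.22 (adjusted p = 0.945, 95% interval -0.49 to 0.42). Its 2 steps were -3.03, adjusted p = 3.68e-11 and 2.99, adjusted p = 3.65e-11. Gm22935, a small nuclear RNA annotated at chr3:89097910-89098013 inside Fdps, showed -0.01 ± 0.68 (adjusted p = 1), and its reads may not be separable from those of Fdps. The 3 genes that rose were Acat2 (0.53 ± 0.14, adjusted p = 0.00735), Insig2 (1.07 ± 0.34, adjusted p = 0.0235) and Soat2 (0.46 ± 0.16, adjusted p = 0.0365), and 1 of the list rose without chow mouse 3 or without T0901317 mouse 2. Insig2 no longer passed without chow mouse 1, chow mouse 2, chow mouse 3 or T0901317 mouse 2 (log2 difference 0.97 to 1.03, adjusted p up to 0.0685). Soat2 no longer passed without chow mouse 2, chow mouse 3, T0901317 mouse 2 or T0901317 mouse 4 (log2 difference 0.35 to 0.44, adjusted p up to 0.153). Acat2 shares 39.1% of its exon sequence with other annotated genes, and Idi1 17.7%.

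**Figure D3:**
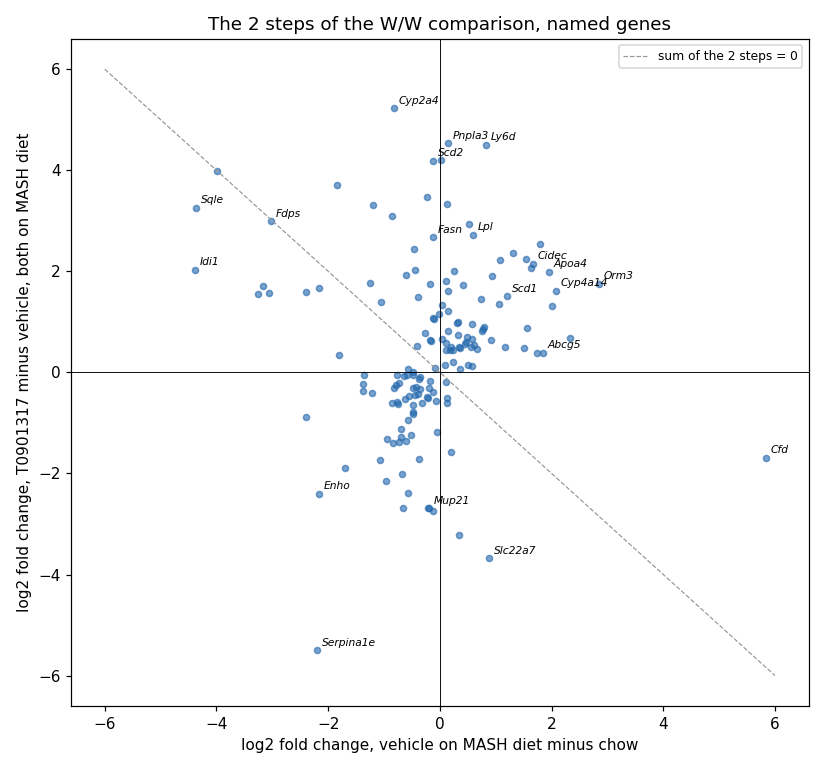
Log2 differences of named genes for vehicle on the MASH diet minus chow (x axis) and T0901317 minus vehicle (y axis) in W/W, 1 point a gene; the vehicle mice enter both axes. Points on the dashed line would have the same fitted level with T0901317 as on chow, such as Fdps (-3.03 and 2.99), and Pnpla3 lies near the y axis (0.15 and 4.53).

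Among 27 genes of lipoproteins and plasma lipases, 11 rose and 6 fell (40.7% and 22.2%, against 10.3% and 12.8% of all genes). Without both farthest mice 7 rose. Apoa4 was 133, 52, 81.9 and 95 TPM in the 4 chow mice, 258, 469, 483 and 215 TPM with vehicle and 1446, 1923, 1059 and 1056 TPM with T0901317. Apoa4, an apolipoprotein secreted with triglyceride-rich particles, rose in each step (1.95, adjusted p = 0.000129, and 1.98, adjusted p = 4.43e-05), by 3.94 ± 0.32 (adjusted p = 1.5e-10) in all. Apom, the carrier of sphingosine phosphate in HDL, fell from 317 to 403 TPM to 149.9 to 201 TPM, by 1.02 ± 0.13 (adjusted p = 8.56e-07). Lcat, which esterifies cholesterol in HDL, fell by 0.47 ± 0.08 (adjusted p = 9.09e-05), with steps of 0.13, adjusted p = 0.353 to vehicle and -0.60, adjusted p = 5.24e-06 to T0901317. Apoa1, the main HDL protein, fell by 0.39 ± 0.11 (adjusted p = 0.012). Apoa1 no longer passed without chow mouse 1 (log2 difference -0.30, adjusted p = 0.0631). After rescaling each library by its median ratio Apoa1 no longer passed either (-0.33, adjusted p = 0.0924).

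Of 28 bile acid genes 3 rose and 6 fell (10.7% and 21.4%, against 10.3% and 12.8% of all genes), with a median of -0.14. Cyp7a1 was 116, 124, 86.1 and 82.2 TPM in the 4 chow mice, 62.5, 90.1, 14 and 63.7 TPM with vehicle and 120.5, 69.1, 143 and 219.8 TPM with T0901317. Cyp7a1, the rate-limiting enzyme of the classic pathway, overlapped between chow and T0901317 and differed by 0.34 ± 0.45 (adjusted p = 0.653, 95% interval -0.58 to 1.26). Cyp7b1, of the alternative pathway, was 159.8, 609.9, 722 and 183 TPM on chow and 86.7, 47.5, 84.5 and 71.8 TPM with T0901317, and fell by 2.24 ± 0.54 (adjusted p = 0.00249). Chow mice 2 and 3 were the high ones, and without both farthest mice Cyp7b1 no longer passed (-1.77, adjusted p = 0.0545). The uptake transporter Slco1a1 fell by 2.08 ± 0.40 (adjusted p = 0.000252), and the conjugating enzyme Baat by 0.64 ± 0.09 (adjusted p = 3.7e-06). The exporter Abcc4 rose from 1.06 to 2.46 TPM to 4.47 to 7.29 TPM, by 1.32 ± 0.28 (adjusted p = 0.000903).

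Targets of PPAR-alpha and enzymes of fatty acid oxidation rose in 28 of 31 cases (90.3%, against 10.3% of all genes). None fell, and the median was 1.02. Without both farthest mice 25 rose. PPAR-alpha is the nuclear receptor for fatty acids that controls their oxidation in liver. Ehhadh was 301, 299.5, 227 and 335 TPM in the 4 chow mice, 437, 625, 581 and 390.2 TPM with vehicle and 2723, 3420.2, 2073 and 2327 TPM with T0901317. Ehhadh, a peroxisomal oxidation enzyme, rose by 3.17 ± 0.20 (adjusted p = 5.98e-13). Cyp4a14 was 351, 24.3, 95.2 and 270.3 TPM in the 4 chow mice, 271, 889, 1311 and 228 TPM with vehicle and 1340.1, 2165, 1408 and 1556 TPM with T0901317. Cyp4a14 hydroxylates fatty acids at their end. Its chow values spread widely, with mouse 2 lowest, and it rose by 3.69 ± 0.89 (adjusted p = 0.00275). Without both farthest mice Cyp4a14 no longer passed (2.77, adjusted p = 0.059). Since Cyp4a genes share much sequence, their sum was also taken (mean ± SD, n = 4), and it was 819.6 ± 260.1 TPM on chow, 1803 ± 845 TPM with vehicle and 4317 ± 637 TPM with T0901317. The acyl-CoA thioesterases Acot1 to Acot6 summed, as mean ± SD, to 57.9 ± 25.1 TPM on chow and 453 ± 134 TPM with T0901317. Cd36, a fatty acid transporter, rose by 2.94 ± 0.31 (adjusted p = 3.49e-08), and the carnitine palmitoyltransferase Cpt1a by 0.44 ± 0.14 (adjusted p = 0.0262). Cpt1a no longer passed without chow mouse 3, chow mouse 4, T0901317 mouse 3 or T0901317 mouse 4 (log2 difference 0.36 to 0.39, adjusted p up to 0.1).

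In glucose and pentose phosphate metabolism 12 of 25 genes rose and 2 fell (48% and 8%, against 10.3% and 12.8% of all genes). G6pdx was 4.5, 3.98, 2.27 and 5.43 TPM in the 4 chow mice, 1.81, 2.92, 3.37 and 5.26 TPM with vehicle and 55.1, 38.2, 41.8 and 46.6 TPM with T0901317. G6pdx is the first enzyme of the pentose phosphate pathway and a source of NADPH. Its chow and vehicle mice overlapped, and it rose by 3.23 ± 0.27 (adjusted p = 4.35e-10). Pklr, liver pyruvate kinase, rose by 1.69 ± 0.43 (adjusted p = 0.00434), and Pgd by 1.09 ± 0.22 (adjusted p = 0.000405). The 2 that fell were Pck1 and Fbp1. Pck1 fell from 1063 to 2409.7 TPM to 502 to 732 TPM, by 1.45 ± 0.25 (adjusted p = 5.97e-05). Fbp1 fell by 0.52 ± 0.11 (adjusted p = 0.000807) with overlap between the groups.

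Of 38 xenobiotic receptors and cytochrome P450 genes, 11 rose and 8 fell (28.9% and 21.1%, against 10.3% and 12.8% of all genes). Without chow mouse 1, 5 fell. Cyp3a11 was 2157, 213, 1798 and 2114 TPM in the 4 chow mice, 1126, 1544, 1388 and 1065 TPM with vehicle and 2921, 2869, 3168 and 2784 TPM with T0901317. Cyp3a11 is a main target of the pregnane X receptor. Chow mouse 2 lay far below the other 3, and the treated mice lay above all chow mice. The difference was 1.35 ± 0.47 (adjusted p = 0.0373). Cyp3a11 no longer passed without chow mouse 2, T0901317 mouse 1, T0901317 mouse 2, T0901317 mouse 3 or T0901317 mouse 4 (log2 difference 0.54 to 1.37, adjusted p up to 0.293). Cyp2b10 was 1.34, 0, 0 and 4.38 TPM in the 4 chow mice, 10.6, 9.39, 12.1 and 4.19 TPM with vehicle and 12.4, 23.4, 12.1 and 11.5 TPM with T0901317. Cyp2b10, a target of the constitutive androstane receptor, rose by 3.01 ± 0.56 (adjusted p = 0.000185), mostly in the step to vehicle (2.33, adjusted p = 0.00574). With a pseudocount of 0.1 the Cyp2b10 difference was 4.83. Cyp2a4, which hydroxylates steroids and is higher in female liver, was 4.19, 5.54, 2.52 and 1.75 TPM on chow and 75.5, 174, 87.7 and 55.3 TPM with T0901317. It rose by 4.41 ± 0.51 (adjusted p = 1.35e-07), and 38.0% of its exon sequence occurs in other genes. Por, the electron donor of these enzymes, rose by 1.66 ± 0.22 (adjusted p = 1.62e-06), and Cyp1a2 fell by 0.82 ± 0.25 (adjusted p = 0.0146).

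Conjugation and detoxification genes rose in 16 of 34 cases and fell in 4 (47.1% and 11.8%, against 10.3% and 12.8% of all genes). Without both farthest mice 10 rose. Gstp1 was 3897, 4549, 7482 and 3826 TPM in the 4 chow mice, 2984, 2865, 2614 and 3459.9 TPM with vehicle and 770.2, 829.9, 702 and 647 TPM with T0901317. Gstp1, a glutathione transferase that is higher in male mouse liver, fell by 2.69 ± 0.22 (adjusted p = 2.13e-10), and the 3 Gstp genes together (mean ± SD) went from 5009 ± 1758 TPM to 795 ± 89.2 TPM. Gstm3 was 322, 1230.4, 243 and 317 TPM with T0901317 against 119, 82.2, 144 and 120.3 TPM on chow, and T0901317 mouse 2 was the high one. Gstm3 no longer passed without T0901317 mouse 2 (log2 difference 1.35, adjusted p = 0.0724). Gstt3 rose by 2.15 ± 0.31 (adjusted p = 4.8e-06).

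Some genes are higher in male than in female mouse liver, a pattern set by growth hormone pulses. Of 28 such genes 15 fell and 1 rose (53.6% and 3.57%, against 12.8% and 10.3% of all genes), with a median of -1.52. Among the 15 were Mup1, Mup3, Mup7, Mup11, Mup12, Mup20 and Mup21, of the major urinary protein family. Of Mup7 exon sequence, 86.7% occurs in other genes. Mup7 and Mup11 each no longer passed under 5 of 8 omissions of a single mouse. Serpina1e was 12969, 26588, 18701 and 10069.8 TPM in the 4 chow mice, 4530.3, 2221, 1983 and 7408 TPM with vehicle and 98.5, 61.9, 93.7 and 58 TPM with T0901317. Serpina1e, of the alpha-1 antitrypsin family, lies at chr12:103946931-103958975 and was the gene with the largest decrease under the naming rule. It fell by 7.70 ± 0.57 (adjusted p = 2.67e-11). It was lower with vehicle (-2.19, adjusted p = 0.0102) and lower again with T0901317 (-5.50, adjusted p = 4.25e-08), and no 2 of the 3 groups overlapped. Because 34.6% of its exon sequence occurs in other genes, the 6 Serpina1 genes were summed (mean ± SD, n = 4): 32054 ± 7071 TPM on chow, 18773 ± 3030.1 TPM with vehicle and 8647 ± 1405 TPM with T0901317. The 21 major urinary protein genes, carriers of pheromones made in male liver, summed, as mean ± SD, to 39285 ± 13276 TPM on chow, 44029 ± 4705 TPM with vehicle and 11723 ± 5504 TPM with T0901317. Vehicle mice were in the range of chow, all treated mice were lower, and T0901317 mouse 2 was lowest. Hsd3b5 was 383, 417, 527 and 365 TPM in the 4 chow mice, 213, 284, 257 and 311 TPM with vehicle and 61.1, 7.4, 89.4 and 58.3 TPM with T0901317. Hsd3b5, a male-specific steroid dehydrogenase, fell by 3.36 ± 0.90 (adjusted p = 0.00624). Without both farthest mice its adjusted p was 0.0831, and 9 of the 28 genes fell. Selenbp2 fell by 3.58 ± 0.66 (adjusted p = 0.000157), and shares 43.9% of its sequence.

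Of 18 genes higher in female liver, 4 rose and none fell (22.2% and 0%, against 10.3% and 12.8% of all genes). Those that rose were Cyp2a4, Acot3, Sult1e1 (1.75 ± 0.17, adjusted p = 4.66e-09) and Cyp17a1 (1.57 ± 0.49, adjusted p = 0.0182). Cyp17a1 no longer passed without chow mouse 1, chow mouse 3 or chow mouse 4 (log2 difference 1.05 to 1.45, adjusted p up to 0.125). Without chow mouse 2 the Cyp17a1 difference was 2.40. Another 7 on that list were too low to test, such as Cyp2b13 at no more than 0.115 TPM in any W/W mouse. Acot3 is also a PPAR-alpha target and rose by 3.79 ± 0.65 (adjusted p = 6.95e-05). In growth hormone signalling 2 of 16 genes rose and 6 fell (12.5% and 37.5%, against 10.3% and 12.8% of all genes). Without both farthest mice 3 fell. The receptor Ghr fell from 126 to 157 TPM to 68.5 to 95.2 TPM, by 0.73 ± 0.14 (adjusted p = 0.000298), and its target Igf1 from 95.2 to 135 TPM to 61 to 73.9 TPM, by 0.73 ± 0.12 (adjusted p = 3.16e-05). Neither overlapped between groups. Igfbp2, which binds insulin-like growth factors, rose by 1.16 ± 0.25 (adjusted p = 0.000992).

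**Figure D4:**
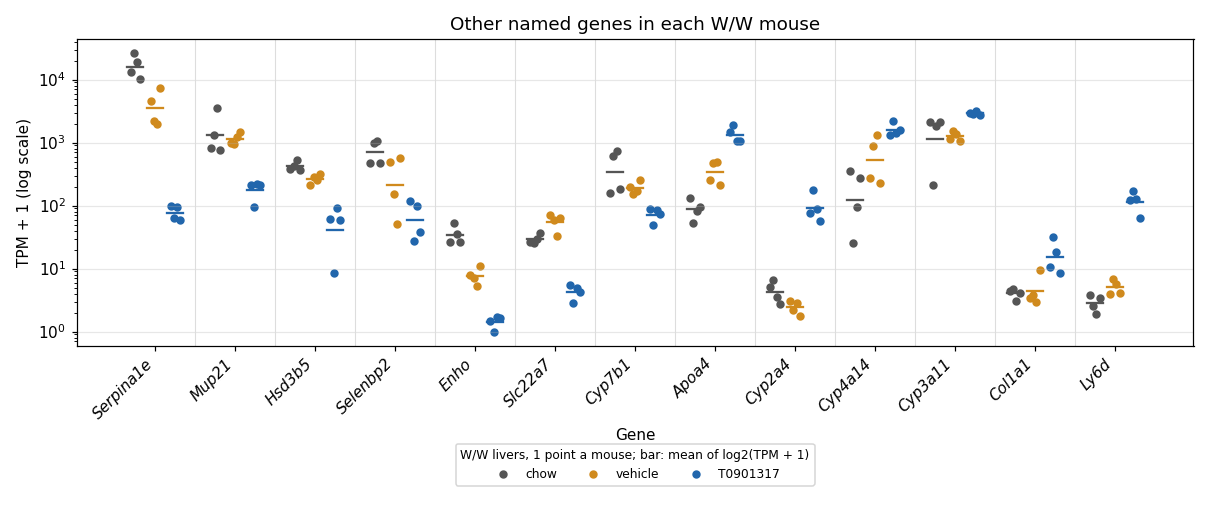
TPM + 1 (log axis) of secreted, male-biased, P450 and other named genes in each of the 12 W/W mice, 1 point a mouse, with bars at the mean of log2(TPM + 1). Serpina1e, Enho and Slc22a7 lie lower with T0901317 than in any chow or vehicle mouse, Ly6d and Cyp2a4 higher, and chow mouse 2 stands apart for Cyp3a11 at 213 TPM.

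Transcripts of some secreted plasma proteins were lower. Of 34 acute phase and antiprotease genes, 12 fell, 2 rose, among them Orm3, and 20 did not pass. The shares that fell and rose were 35.3% and 5.88%, against 12.8% and 10.3% of all genes, and 8 fell without both farthest mice. Serpina1a, Serpina1b, Serpina1c, Serpina1d and Serpina1e were among the 12. Of Serpina1c exon sequence, 74.2% occurs in other genes. The count that rose was 1 under each omission of a single mouse except that of T0901317 mouse 3. Orm3 was 2.33, 1.71, 6.91 and 3.26 TPM in the 4 chow mice, 44.8, 19.5, 23.5 and 35.3 TPM with vehicle and 96.6, 143, 114 and 65.7 TPM with T0901317. Orm3, an acute phase glycoprotein, rose by 4.61 ± 0.49 (adjusted p = 3.66e-08). Hamp, the iron hormone hepcidin, fell from 1894 to 2973 TPM to 408 to 1269 TPM, by 1.81 ± 0.43 (adjusted p = 0.00211). Saa1, a marker of acute inflammation, was 38.8, 115, 2291 and 56.1 TPM on chow and 47.4, 83.1, 51.1 and 46.8 TPM with T0901317, with chow mouse 3 the high one, and did not pass (-1.48 ± 1.23, adjusted p = 0.434).

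Complement genes fell in 14 of 26 cases and rose in 2 (53.8% and 7.69%, against 12.8% and 10.3% of all genes). After rescaling 4 rose, and without both farthest mice 10 fell and 1 rose. C8b was 377, 578, 563 and 361 TPM in the 4 chow mice, 254, 229, 186 and 287 TPM with vehicle and 120.4, 53.2, 125 and 99.4 TPM with T0901317. C8b, C8a, C9 and Hc (C5) are components of the membrane attack complex. They fell by 2.27 ± 0.24 (adjusted p = 3.62e-08), 1.99 ± 0.20 (adjusted p = 1.1e-08), 1.76 ± 0.22 (adjusted p = 7.33e-07) and 1.61 ± 0.20 (adjusted p = 4.55e-07) in that order. Cfd was 11.8, 0.286, 2.82 and 6.15 TPM in the 4 chow mice, 369, 303, 390.0 and 107 TPM with vehicle and 73.9, 55.7, 85.8 and 116 TPM with T0901317. Cfd, the protease of the alternative pathway also known as adipsin, rose with vehicle (5.83, adjusted p = 2.04e-08). The step from vehicle to T0901317 did not pass (-1.70, adjusted p = 0.0514), and those groups overlapped. Against chow it rose by 4.14 ± 0.57 (adjusted p = 2.68e-06). Cfp, properdin, rose by 0.85 ± 0.27 (adjusted p = 0.0192). Cfp no longer passed without chow mouse 1 or T0901317 mouse 2 (log2 difference 0.71 to 0.79, adjusted p up to 0.0875). Cfd is also an adipocyte marker. The 9 adipocyte markers together summed to 907 to 2997 TPM on chow and 1313 to 1926 TPM with T0901317, most of it Car3, and Fabp4 rose too (2.26 ± 0.24, adjusted p = 3.28e-08). Lep was listed at 0 in all 8 mice, and Adipoq, Plin1 and Retn were at most 0.235, 0.0233 and 0.507 TPM in any W/W mouse. The part of adipocytes in the Cfd difference was not tested.

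Enzymes of amino acid breakdown and the urea cycle fell in 13 of 25 cases and rose in 2 (52% and 8%, against 12.8% and 10.3% of all genes). Without both farthest mice 10 fell and 3 rose. Tat was 1061, 2757, 2044 and 1309 TPM in the 4 chow mice, 647, 681, 610.0 and 654 TPM with vehicle and 425, 586, 397 and 648 TPM with T0901317. Tat, tyrosine aminotransferase, fell by 1.73 ± 0.26 (adjusted p = 9.79e-06), and Cps1, the first enzyme of the urea cycle, by 1.15 ± 0.21 (adjusted p = 0.000132). Cbs, of the transsulfuration pathway, fell by 1.27 ± 0.19 (adjusted p = 6.89e-06). The 2 that rose were Hpd (0.70 ± 0.17, adjusted p = 0.00207) and Glul (0.65 ± 0.12, adjusted p = 0.000113), glutamine synthetase of the cells around the central vein.

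The 23 genes of the unfolded protein and integrated stress responses had a median of -0.60. Of these, 14 fell and none rose (60.9% and 0%, against 12.8% and 10.3% of all genes). The count was 9 without chow mouse 3, without T0901317 mouse 2 or without T0901317 mouse 4, and 8 without both farthest mice. Sdf2l1 was 58, 133, 143 and 122 TPM in the 4 chow mice, 37.3, 56, 109.9 and 104 TPM with vehicle and 30.0, 23.3, 27.1 and 26.7 TPM with T0901317. Sdf2l1, a chaperone cofactor of the endoplasmic reticulum, fell by 1.97 ± 0.33 (adjusted p = 4.97e-05). Hspa5, the chaperone BiP, was 355, 565, 816 and 737 TPM on chow and 355, 312, 385 and 306 TPM with T0901317, and fell by 0.80 ± 0.27 (adjusted p = 0.0324). The chow mice were spread more widely than the treated mice. Hspa5 no longer passed without chow mouse 2, chow mouse 3, chow mouse 4, T0901317 mouse 1, T0901317 mouse 2 or T0901317 mouse 4 (log2 difference -0.82 to -0.65, adjusted p up to 0.127). Asns, a target of the amino acid response, was 2.6, 30.7, 7.46 and 1.58 TPM on chow, with mouse 2 the high one, and 1.3, 1.66, 1.76 and 1.92 TPM with T0901317. Asns no longer passed without chow mouse 2, chow mouse 3, T0901317 mouse 1, T0901317 mouse 2, T0901317 mouse 3 or T0901317 mouse 4 (log2 difference -1.46 to -0.69, adjusted p up to 0.303). Ddit3, the stress factor CHOP, did not pass (0.11 ± 0.23, adjusted p = 0.788).

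In the antioxidant list 3 of 17 rose and 1 fell (17.6% and 5.88%, against 10.3% and 12.8% of all genes). In it Nfe2l2, the factor Nrf2, rose by 0.71 ± 0.13 (adjusted p = 0.00019). Of 24 cell cycle genes 2 rose, Ccnd1 and Cdkn1a (8.33%, against 10.3% of all genes), and none fell. Cdkn1a no longer passed without both farthest mice (1.25, adjusted p = 0.112). Ccnd1 was 9.62, 18, 6.02 and 11.2 TPM in the 4 chow mice, 3.9, 10.9, 7.51 and 8.84 TPM with vehicle and 42.6, 43.9, 52.6 and 39.4 TPM with T0901317. Cyclin D1 rose by 1.98 ± 0.27 (adjusted p = 2.43e-06), whereas the proliferation marker Mki67 did not pass (0.19 ± 0.25, adjusted p = 0.655). Of 19 clock genes 5 fell (26.3%, against 12.8% of all genes) and none rose, and 2 to 3 fell without chow mouse 1 or 2 or T0901317 mouse 1, 2 or 4. Dbp, a clock output gene, was 121, 86, 64.7 and 27.5 TPM on chow and 95.1, 88.6, 91.8 and 93.1 TPM with T0901317, so the chow mice were spread over a wider range than the treated mice. Of 21 interferon-stimulated genes 2 rose and 1, Mx2, fell (9.52% and 4.76%, against 10.3% and 12.8% of all genes). None rose without T0901317 mouse 2. Those that rose were Ifit2 (0.95 ± 0.34, adjusted p = 0.0409) and Bst2 (0.69 ± 0.21, adjusted p = 0.0178). Ifit2 no longer passed without chow mouse 1, chow mouse 3, T0901317 mouse 2, T0901317 mouse 3 or T0901317 mouse 4 (log2 difference 0.78 to 1.00, adjusted p up to 0.15). Bst2 no longer passed without chow mouse 2 or T0901317 mouse 2 (log2 difference 0.63 to 0.65, adjusted p up to 0.0628).

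Markers of other liver cell types were examined because whole liver was sequenced. Of 12 Kupffer cell markers 3 rose (Clec4f, Folr2, Cd5l) and none fell (25% and 0%, against 10.3% and 12.8% of all genes). The 12 markers summed to 217 to 324 TPM on chow and 333 to 662 TPM with T0901317. Clec4f was 42.5, 46.6, 49.2 and 58.1 TPM in the 4 chow mice, 68, 73.4, 70.3 and 77.6 TPM with vehicle and 69.5, 125, 106 and 118 TPM with T0901317. Clec4f, specific to resident Kupffer cells, rose by 1.05 ± 0.27 (adjusted p = 0.00499), and Cd5l, an LXR target of macrophages, by 1.19 ± 0.38 (adjusted p = 0.0229). Cd5l no longer passed without chow mouse 1, T0901317 mouse 2 or T0901317 mouse 3 (log2 difference 1.00 to 1.14, adjusted p up to 0.0968). The count of Kupffer markers that rose was 6 without T0901317 mouse 1 and 7 after rescaling, when 1 other marker fell. It was 1 without both farthest mice, when Clec4f no longer passed (0.93, adjusted p = 0.0528). Of 15 markers of recruited and lipid-associated macrophages 4 rose (Cd63, Lgals3, Spp1, Cd9), or 26.7% against 10.3% of all genes. Without both farthest mice 2 rose. The 15 markers summed to 132 to 162 TPM on chow and 266 to 511 TPM with T0901317. Gpnmb was 0.342, 0.526, 0.798 and 0.533 TPM in the 4 chow mice, 0.491, 0.482, 0.711 and 3.05 TPM with vehicle and 0.57, 2.76, 0.963 and 0.595 TPM with T0901317. Gpnmb, Trem2 and Itgax, other markers of this list, did not pass, and T0901317 mouse 2 was the highest treated mouse for each. Lgals3 was 7.29, 21.8, 8.8 and 8.3 TPM in the treated mice. Lgals3 no longer passed without T0901317 mouse 2 (log2 difference 1.23, adjusted p = 0.0767). Cd9 no longer passed without chow mouse 3 (log2 difference 0.76, adjusted p = 0.0559). Ccl2, a chemokine that draws monocytes, did not pass (0.45 ± 0.56, adjusted p = 0.626).

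Of 19 stellate cell and fibrosis genes 9 rose and none fell (47.4% and 0%, against 10.3% and 12.8% of all genes). The 19 genes summed to 89.6 to 139 TPM on chow and 164 to 331 TPM with T0901317. Col1a1 was 3.47, 3.76, 2.04 and 3.17 TPM in the 4 chow mice, 2.4, 2.76, 1.96 and 8.44 TPM with vehicle and 9.77, 31.2, 17.4 and 7.63 TPM with T0901317. Col1a1, a chain of fibrillar collagen, was highest in T0901317 mouse 2, and the chow and treated mice did not overlap. It rose by 1.92 ± 0.39 (adjusted p = 0.000538), and Col3a1 by 1.58 ± 0.35 (adjusted p = 0.00117). The step from chow to vehicle was 0.10, adjusted p = 0.929 for Col1a1. Acta2, made by activated stellate cells, did not pass (0.29 ± 0.37, adjusted p = 0.631), nor did Timp1 (0.86 ± 0.36, adjusted p = 0.0902). Without both farthest mice 5 of the 19 rose.

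Few genes of the remaining marker lists passed. Over all genes 10.3% rose and 12.8% fell. Of 9 hepatocyte markers 3 fell (Tat, Cps1, Apoa1). Of 10 endothelial markers 1 rose (Lyve1), or 3 after rescaling, of 8 bile duct markers 1 rose (Sox9, 0.67 ± 0.21, adjusted p = 0.0204), of 8 lymphocyte markers 1 fell (Cd4), and of 5 red cell markers 1 fell (Alas2). Sox9 no longer passed without chow mouse 1 or T0901317 mouse 2 (log2 difference 0.52 to 0.62, adjusted p up to 0.108). Cd4 no longer passed without chow mouse 1, chow mouse 3, chow mouse 4, T0901317 mouse 1, T0901317 mouse 2 or T0901317 mouse 4 (log2 difference -0.61 to -0.47, adjusted p up to 0.146). Of 10 neutrophil markers none passed. Of 5 adipocyte markers Cfd and Fabp4 rose and Nnat fell. Of 4 tested pancreas and gut markers Apoa4 and Fabp2 rose, genes that liver also expresses, and Prss1, Pnlip and Cpa1 were listed at 0 in all 8 mice. Vehicle mouse 1, which enters the step values, held 29.0 TPM of Pnlip and 15.8 TPM of Cpa1. The summed bile duct markers were 18.4 to 22.2 TPM on chow and 19.4 to 30.4 TPM with T0901317, and the neutrophil markers 1.82 to 29.1 TPM and 4.88 to 13.2 TPM. The part of these cells in the liver-wide differences was not tested.

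Some of the largest differences lay outside the lists. Ly6d was 2.76, 1.59, 0.92 and 2.4 TPM in the 4 chow mice, 2.91, 5.85, 4.74 and 3.17 TPM with vehicle and 123, 169, 126 and 62.2 TPM with T0901317. Ly6d, a surface protein of keratinocytes and lymphocyte precursors, had the largest rise under the naming rule on the log2(TPM + 1) scale, 5.33 ± 0.51 (adjusted p = 4.49e-09). With a pseudocount of 0.1 it was 5.91, below the 6.72 of Mir6392. Krt23, a keratin, went from 0.605 to 3.03 TPM to 35.8 to 52.9 TPM, with 4.33 ± 0.27 (adjusted p = 5.98e-13). Enho was 25.2, 51.5, 34.4 and 25.4 TPM in the 4 chow mice, 6.99, 6.14, 4.29 and 9.83 TPM with vehicle and 0.459, 0, 0.706 and 0.655 TPM with T0901317. Enho encodes the hepatokine adropin. It fell by 4.56 ± 0.23 (adjusted p = 7.11e-15), in both steps (-2.16, adjusted p = 1.01e-07, and -2.41, adjusted p = 6.08e-09). Enho lies at chr4:41638144-41640324 and overlaps the antisense gene Gm12406. Slc22a7 was 25.9, 24.5, 28.8 and 35.2 TPM in the 4 chow mice, 70.2, 57.8, 31.6 and 61.5 TPM with vehicle and 4.5, 1.83, 3.85 and 3.17 TPM with T0901317. Slc22a7, an organic anion transporter, was higher with vehicle than on chow (0.88, adjusted p = 0.0316) and fell with T0901317 (-3.68, adjusted p = 4.34e-11), by 2.80 ± 0.28 (adjusted p = 9.52e-09) against chow. Adgrf1, an adhesion receptor, fell by 3.29 ± 0.29 (adjusted p = 1.01e-09), mostly in the step to vehicle (-2.40, adjusted p = 1.65e-06). With a pseudocount of 0.1 the differences were -5.16 for Adgrf1 and -6.25 for Enho. Rdh16f2, a retinol dehydrogenase relative, fell by 3.12 ± 0.19 (adjusted p = 5.98e-13).

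The same comparison was made in the mutant mice to ask where the response with the normal receptor differed. The difference of responses between W/F and W/W passed for 422 of 16638 genes (2.54%; 90 with a higher and 332 with a lower value in W/F), and that between F/F and W/W for 1534 (9.22%; 966 and 568). The median of the second difference over all genes was 0.13 on the log2 scale. After rescaling by median ratios, which sets that median to 0.01, 1669 genes passed, 620 higher and 1049 lower. The W/W mice enter both differences.

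Under the naming rule Sqle, Fdps and Gm22935 had the most negative differences to W/F. Sqle had means of 69.2 ± 14.1 TPM on chow and 31.2 ± 3.13 TPM with T0901317 (SD, n = 4) in W/W, 137 ± 21.2 TPM on chow and 1.68 ± 0.238 TPM with T0901317 (SD, n = 4) in W/F and 65.5 ± 15.9 TPM on chow and 3.69 ± 1.1 TPM with T0901317 (SD, n = 4) in F/F. The response differed from that in W/W by -4.57 ± 0.24, adjusted p = 2.56e-14 in W/F and -2.72 ± 0.24, adjusted p = 7.75e-09 in F/F. Fdps, which overlapped with chow in treated W/W mice, had 206 ± 18.4 TPM on chow and 8.04 ± 2.12 TPM with T0901317 (SD, n = 4) in W/F, with a difference of -4.51 ± 0.31, adjusted p = 2.54e-11.

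Scd1, Fasn and Pnpla3 are given with their levels on chow, which were not compared between genotypes by a test. Scd1 had means of 3708 ± 1678 TPM on chow and 21770.5 ± 410.0 TPM with T0901317 (SD, n = 4) in W/W, 38.3 ± 18 TPM on chow and 1900.2 ± 242 TPM with T0901317 (SD, n = 4) in W/F and 63.9 ± 20.01 TPM on chow and 583 ± 85.6 TPM with T0901317 (SD, n = 4) in F/F. Its log2 response was larger in W/F (2.99 ± 0.42, adjusted p = 2.02e-05), and in F/F the difference was 0.49 ± 0.42, adjusted p = 0.494. Fasn had means of 146 ± 44.7 TPM on chow and 841 ± 177 TPM with T0901317 (SD, n = 4) in W/W, 70.5 ± 18.2 TPM on chow and 65.4 ± 19.8 TPM with T0901317 (SD, n = 4) in W/F and 22.5 ± 8.42 TPM on chow and 22 ± 5.75 TPM with T0901317 (SD, n = 4) in F/F, and its response was smaller in both mutants (-2.67 ± 0.59, adjusted p = 0.00693 and -2.55 ± 0.59, adjusted p = 0.00568). Pnpla3 had lower means in both mutants (0.12 ± 0.0385 TPM on chow and 1.99 ± 0.702 TPM with T0901317 (SD, n = 4) in W/F, 0.345 ± 0.162 TPM on chow and 1.14 ± 0.654 TPM with T0901317 (SD, n = 4) in F/F), with differences of -3.29 ± 0.47, adjusted p = 2.97e-05 and -4.06 ± 0.47, adjusted p = 9.97e-07. The mutant levels of Pnpla3 are near or below the 1 TPM added before the log. This shrinks their log2 responses, so the size of these differences depends on the scale. For Abcg5 the difference was -0.78 ± 0.33, adjusted p = 0.274 in W/F and -1.64 ± 0.33, adjusted p = 0.00177 in F/F, and for Abca1 0.01 ± 0.21, adjusted p = 0.995 and 0.53 ± 0.21, adjusted p = 0.116. Mylip had a larger response in F/F (0.81 ± 0.25, adjusted p = 0.0374). Serpina1e remained at 19451 ± 5221 TPM on chow and 4548 ± 3304 TPM with T0901317 (SD, n = 4) in W/F, a difference of 5.27 ± 0.81, adjusted p = 8.86e-05. Cfd rose in W/W and had 2.55 ± 0.544 TPM on chow and 1 ± 0.36 TPM with T0901317 (SD, n = 4) in F/F (-4.97 ± 0.80, adjusted p = 0.000161).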

How the data were processed

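PolyA RNA of 36 mouse livers was sequenced, 4 in each of 9 groups, and the 8 libraries compared here come from 2 of them. Per the submitters' processing notes, the tools were Trimmomatic 0.36, STAR 2.5.2b and featureCounts of Subread 1.5.2, with the build GRCm38 (mm10). The annotation, strand setting and filters are not given in the sources used here. The authors deposited a table of TPM, and each column sums to 1e+06. TPM correct for length and library total, not for a change in composition. Reads behind each TPM were estimated from GENCODE M21 exon lengths: 18.1 to 35.8 M per library, with 92.9% to 95.0% of values under 20 reads within 0.1 of a whole number.

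Values were analysed as log2(TPM + 1) for 16638 of 49315 genes, those with at least 1 TPM in at least 4 libraries. One mean per group was fitted over all 36 libraries with limma 3.58.1 in R 4.3.3 (variances moderated along the mean expression). Contrasts were two-sided, with the Benjamini-Hochberg adjustment over all genes tested and a threshold of 0.05. The script was tested on simulated data. Alternatives were another pseudocount, filters, rescaling, the replicate block, array weights, no variance trend, only the libraries compared and the omission of each library. Voom on recovered reads and the omission of 2 libraries were added after the data were seen.

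The members and lists were chosen with earlier results of these data known, so they are not independent support. Named genes were the 12 largest and 12 smallest differences that passed without overlap and averaged 5 TPM or more in either group, a fixed set of 24, up to 4 per list and direction, and the 3 largest and smallest differences between genotypes. Other list members, the promoter examples and genes too low to test were named after their values were seen. Results of some genes are not reported here. Exon sequence shared with other genes was counted in runs of 50 bases.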

Additional observations from a re-analysis of the deposited data

Results flagged for a closer look

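Of 94 groups of 4 W/W mice examined, in 47 genes, 7 held a mouse far from the other 3, and chance alone gives about 1 in 20. Cyp3a11 was 213 TPM in chow mouse 2 against 1798 to 2157 TPM in the other chow mice. Rdh16f2 was 117 TPM and Mylip was 3.53 TPM in chow mouse 3, below the other chow mice. Mir6392 was 5.84 TPM in chow mouse 4 and 0 in the others. T0901317 mouse 2 was low for Mup21, at 94.6 TPM, and for B430219N15Rik, at 11.2 TPM, and high for Cyp2b10, at 23.4 TPM.

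Among a chosen set of named genes, 8 are listed whose W/F response to diet plus T0901317 departed from the W/W response. This is by the limma test of the difference that 422 of all genes passed. For W/F and for F/F the set held the 3 largest and 3 smallest differences that had passed this test. The counts were therefore partly fixed by the choice of genes. On the log2 scale, W/F minus W/W, it was 5.27 for Serpina1e, 3.17 for the small nuclear RNA Gm23445 and 2.99 for Scd1. It was -4.57 for Sqle, -4.51 for Fdps, -4.31 for Gm22935, -3.29 for Pnpla3 and -2.67 for Fasn. Gm22935 is annotated inside Fdps on the same strand.

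In the same set the F/F response departed from that of W/W for 11 genes, by the test that 1534 of all genes passed. This count too was partly fixed by the choice of genes. The signed difference, F/F minus W/W, was 4.26 for Cd5l, 3.70 for Sult2a2, 3.68 for Inmt and 0.81 for Mylip. It was -4.97 for Cfd, -4.30 for Mir6392, -4.06 for Pnpla3, -2.72 for Sqle, -2.55 for Fasn, -1.64 for Abcg5 and -1.57 for Abcg8. For Sqle the negative sign is a deeper fall, from a mean of 65.5 TPM on chow to 3.69 TPM with T0901317 in F/F. Sult2a2 was at most 0.584 TPM in the 8 W/W mice of the comparison, and 62.1% of its sequence occurs in other genes. Inmt had a mean of 28.6 TPM on chow and 1167 TPM with T0901317 in F/F.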

How the results depend on the processing

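The count of genes that passed against chow was 3348 to 4783 under 9 other ways of processing, and 2802 to 3558 when 1 library was left out. It was 2193 without chow replicate 2 and T0901317 replicate 2. For the difference of W/F and W/W it was 422, and 639 after rescaling, 848 with array weights and 330 to 428 without 1 library. For F/F and W/W it was 1534, and 2466 with array weights and 1036 to 1802 without 1 library. Voom on recovered reads gave 411 for W/F, 43.1% of them higher in place of 21.3%, and for F/F 1898. Replicate numbers did not pair mice: the correlation of same-numbered deviations was 0.00203 to 0.0412, and no chow mouse was closest to its own number. With the replicate block 3964, 450 and 1531 genes passed for the 3 comparisons. Of 146 named genes that passed, 111 passed under every setting run. With only the libraries compared, 5 named genes no longer passed. Among them were Apoa1, Asns, Cyp17a1 and Cyp3a11 (limma, adjusted p = 0.0661, 0.139, 0.128 and 0.155).

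Signs changed for 3 genes that did not pass. Fdps was 0.0239 rescaled and 0.0272 without both mice, and -0.20 to 0.0962 without 1 library. Gm22935 was 0.0455 and 0.0282, and -0.21 to 0.407. Nr1h2 was -0.00933 with array weights, -0.0163 with voom, -0.00573 without both mice, and -0.0276 to 0.0321 without 1 library. The causes were not tested. Depth limits genes of a few TPM.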
